A study of Arabidopsis thaliana with 30 samples.

Results

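The class II CIN-type TCP genes of Arabidopsis thaliana are 8 genes, taken here by their locus identifiers. They are TCP2 (AT4G18390), TCP3 (AT1G53230), TCP4 (AT3G15030), TCP10 (AT2G31070), TCP24 (AT1G30210), TCP5 (AT5G60970), TCP13 (AT3G02150) and TCP17 (AT5G08070). All 8 were found among the 32833 genes of each of 2 count tables, and all 8 passed the filter on low counts in both. RNA was taken from whole seedlings with a labelled age of 6 days, either mock treated or submerged in water, and sequenced after poly-A selection. One table holds 12 libraries of Col, the wild type, and of bak1-3 bkk1-1, a line with T-DNA insertions in the receptor kinase genes BAK1 and BKK1, and is called the bak set. The other holds 18 libraries of Col and of the CRISPR lines tcp21 and tcpq, and is called the tcp set. Each genotype and treatment had 3 libraries. The sources used here do not give the genes edited in tcpq, the duration of submergence, or whether each CRISPR line is 1 clone.

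Library totals ranged from 19662531 to 27417759 counts (bak set) and from 17466180 to 33957452 (tcp set). The targeted genes were lower than Col in the lines labelled for them, and also in others. Of BAK1, BKK1 and TCP21, the edgeR test described below called 2 lower in bak1-3 bkk1-1 mock seedlings, where 0.135% of all tested genes were lower. All 3, BAK1 included, were called lower in tcp21 mock seedlings (23% of all genes) and in tcpq (22.6%). BAK1 lay at 26.0 to 29.4 CPM (counts scaled to the library total) in bak1-3 bkk1-1 mock libraries against 69.6 to 86.9 in Col, and TCP21 at 27.9 to 33.0 CPM in tcp21 mock libraries against 83.2 to 102 in Col of the tcp set. TCP21 was at 19.9 to 23.6 CPM in tcpq mock libraries, and BKK1 was at 16.7 to 21.0 CPM in tcp21 and 15.2 to 18.3 in tcpq against 35.6 to 49.2 in Col, so low levels were not particular to the labelled line. Transcript of a mutated gene can still be counted, so these levels check the libraries and not the protein. In 1 of 3 Col mock libraries of the tcp set, replicate 1, the genotype field gives bak1-3 bkk1-1, while the title and strain give Col. BAK1 in the Col mock libraries of the tcp set lay between 75.3 and 82.2 CPM, and member calls that change without replicate 1 are given with the value without it. Seed storage genes summed to 249 CPM in Col mock replicate 2 of the bak set and to 0.757 and 1.01 in the other two, against 122.5 to 219 CPM in submerged Col, and leaving out that mock library changed no member's call. In bak1-3 bkk1-1 they summed to 0.0882 to 10.3 CPM in mock and 0.163 to 1.66 after submergence. All submerged Col libraries of the bak set thus carried more than the submerged mutant, and the part of this in the member results was not tested. The sets were fitted apart, and a level or fold change set across them is not a test.

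CIN-type TCP proteins are transcription factors that bind DNA through a basic helix-loop-helix-like TCP domain. They slow cell division and promote differentiation as leaves and cotyledons mature, and they act on auxin, jasmonate and cytokinin genes. The family falls into a group whose transcripts are cut under the direction of the microRNA miR319 (TCP2, TCP3, TCP4, TCP10 and TCP24) and a TCP5 group without that site (TCP5, TCP13 and TCP17), whose members are known for roles in petal and leaf growth and in elongation under warmth and shade.

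The miR319 sequences and the matching stretches of the transcripts show why the family is divided in this way. In the mature microRNAs of RefSeq TAIR10.1, capitals mark the seed, bases 2 to 8.
miR319a and miR319b: uUGGACUGaagggagcucccu
miR319c: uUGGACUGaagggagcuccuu
All 3 loci share 1 seed. In the 21-base windows of the member transcripts, capitals mark bases that differ from the perfect complement of miR319a.
TCP2: CAggGgGAcccuucaguccaa
TCP24: UAggGgGAcccuucaguccaa
TCP10: aAggGgUAcccuucaguccaG
TCP3: GAggGgUCcccuucaguccaU
TCP4: GAggGgUCcccuucaguccaG
TCP13, best window: aggCaAAGAccGucaCAGcaa
The windows of TCP2, TCP10 and TCP24 differ from the complement at 5 positions and those of TCP3 and TCP4 at 6, all in coding sequence. Between 1 and 4 of those positions can form a G:U pair. The best windows of TCP5 and TCP13 differ at 9 positions and that of TCP17 at 8. The 12 bases CCCUUCAGUCCA lie opposite the seed and the bases that follow it. They were picked as the longest stretch that matches the complement in all 5 miR319-group windows. They occur in the RefSeq transcripts of 7 of 31460 genes (0.0223%). Those genes are the 5 miR319-group members, whose presence was fixed by that choice, together with AT1G48090 and AT5G37450. The match describes letters and does not show cleavage in these seedlings.

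Levels of different members were compared as RPKM, the CPM per kilobase of exon. In Col mock libraries of the bak set TCP10 stood highest, at 16.1 ± 0.741 RPKM (SD, n = 3), and its libraries did not overlap those of any other member. TCP24 (13.1), TCP13 (12.8), TCP2 (11.3) and TCP4 (10.4 RPKM) followed, each overlapping its neighbour in that order. TCP5 lay at 8.85 RPKM, just overlapping TCP4, with TCP17 at 2.40 and TCP3 at 0.353 RPKM apart from all others. After submergence the order was led by TCP13 at 25.7 ± 3.66 RPKM, with TCP24 at 18.2 ± 2.53. Their libraries did not overlap by exon length. By coding length they did, with TCP13 at 23.3% to 32.2% of the summed level of the family and TCP24 at 19.1% to 24.2%. TCP2 had dropped to 5.34 ± 1.35 RPKM, where it overlapped TCP5 at 6.24 ± 0.401. In the tcp set TCP10 again led in the mock groups of Col (14.9 ± 1.77) and tcp21 (19.8 ± 1.91 RPKM), while in tcpq it overlapped TCP4 (12.9 ± 0.306 and 12.8 ± 1.03 RPKM). TCP3 and TCP17 were the lowest members in every group of both sets.

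**Figure D1:**
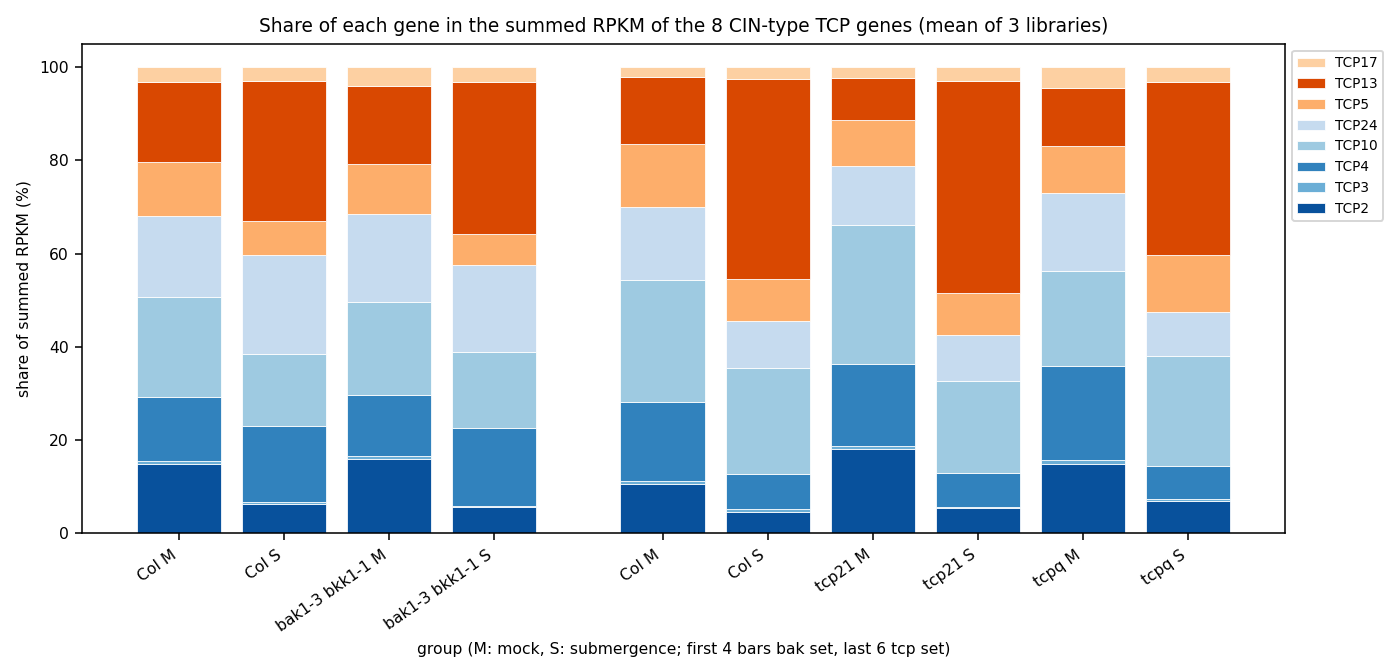
Share of each CIN-type TCP gene in the summed RPKM of the 8 genes, in percent, as the mean of 3 libraries for each of the 10 groups (M mock, S submergence; the first 4 bars are the bak set and the last 6 the tcp set). TCP13 took 17.0% in mock and 30.1% in submerged Col of the bak set, and 14.4% and 43.0% in Col of the tcp set.

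Under submergence the summed level of the family went different ways in different genotypes, and within it TCP13 took a larger share and TCP2 a smaller one in all 5 genotype groups. The summed level of the 8 genes was 75.3 ± 6.85 RPKM in mock and 85.5 ± 2.67 in submerged Col of the bak set, and 56.4 ± 3.96 against 61.9 ± 4.46 in Col of the tcp set, the one genotype group whose libraries overlapped. It was 79.8 ± 1.54 against 92.0 ± 4.31 RPKM in bak1-3 bkk1-1. In tcp21 the sum was 66.5 ± 1.69 in mock and 59.4 ± 1.96 RPKM after submergence, and in tcpq 63.3 ± 2.87 and 58.3 ± 2.83. Within these sums the share of TCP13 went from 8.84% ± 1.34 to 45.6% ± 2.71 in tcp21 and from 12.5% ± 0.816 to 37.1% ± 0.534 in tcpq. The share of TCP2 went from 18.1% ± 1.07 to 5.36% ± 1.63 in tcp21 and from 15.0% ± 1.65 to 6.22% ± 1.39 in Col of the bak set. Other shares did not move alike. That of TCP4 went from 13.7% to 16.4% in Col of the bak set and from 16.8% to 7.49% in Col of the tcp set, that of TCP24 from 17.3% to 21.3% and from 15.7% to 10.1%, and that of TCP10 from 21.5% to 15.4% in Col of the bak set and from 20.4% to 23.6% in tcpq. Shares sum to the whole, so a gain of one member lowers the shares of the others. These sums and shares are descriptions without a test.

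Submergence against mock was tested in each of 5 genotype groups with edgeR's quasi-likelihood test, and calls are genes whose Benjamini-Hochberg adjusted p over all tested genes was below 0.05. In Col of the bak set 3 members rose and 3 fell, where 25.4% of all tested genes rose and 24.1% fell. In bak1-3 bkk1-1 2 rose and 2 fell, against 26.3% and 26.4% of all genes. In Col of the tcp set 1 rose and 4 fell (27.1% and 22.9% of all genes), in tcp21 1 rose and 5 fell (24.1% and 24.7%), and in tcpq 1 rose and 4 fell (32.8% and 30.6%). With 8 members these counts cannot be set apart from such backgrounds, so the members are described one by one. In whole seedlings, fewer cells of a type and less RNA per cell cannot be told apart.

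**Figure D2:**
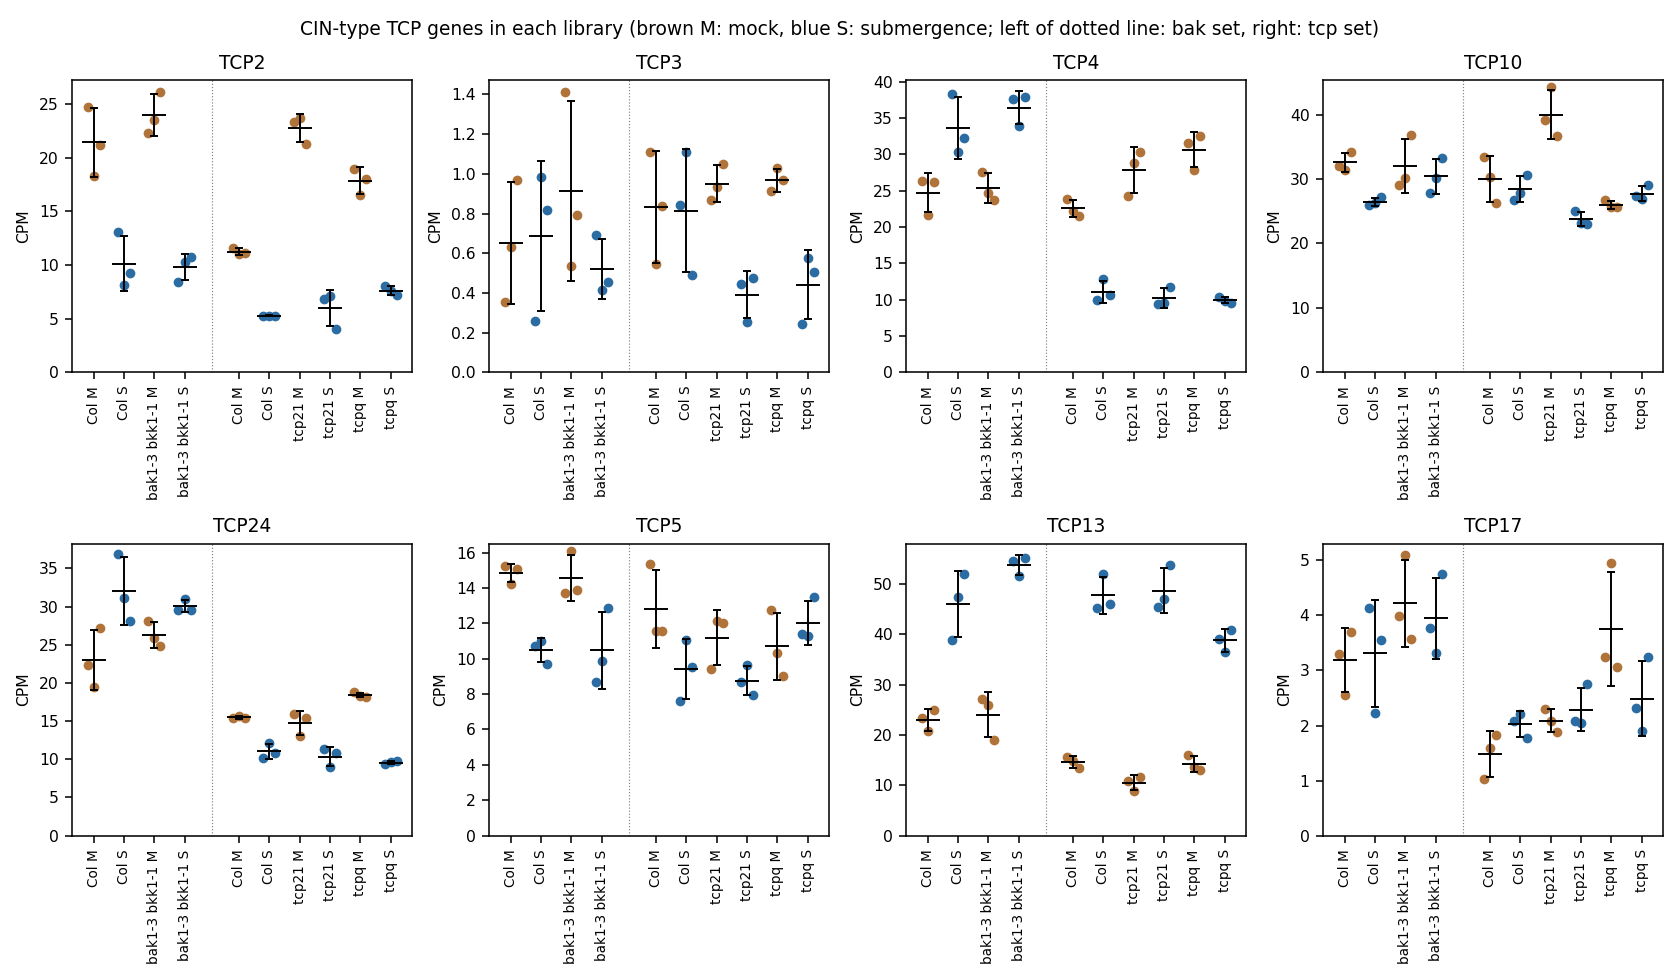
CPM of each CIN-type TCP gene in all 30 libraries, 1 panel per gene, with mock libraries in brown (M) and submerged libraries in blue (S); bars are the mean ± SD of 3 libraries, and the dotted line parts the bak set from the tcp set. Every submerged library lies above every mock library of its genotype for TCP13 and below it for TCP2, while TCP4 is higher under submergence in the bak set and lower in the tcp set.

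TCP13, a TCP5-group factor that has been linked to dehydration responses and auxin, rose under submergence in every genotype. Col of the bak set had it at 23.4, 20.7 and 25.0 CPM in mock and at 39.0, 47.3 and 51.9 CPM in submerged libraries, a log2 fold change of 1.00 ± 0.13 (SE, adjusted p = 5.39e-06). In bak1-3 bkk1-1 the values were 27.2, 25.9 and 18.9 against 54.6, 51.6 and 55.1 CPM (1.16 ± 0.13, adjusted p = 8.22e-07). The groups did not overlap in either genotype. In Col of the tcp set TCP13 went from 15.7, 14.8 and 13.4 CPM to 45.3, 52.0 and 46.0 CPM, a 3.26-fold rise (log2 1.71 ± 0.11, adjusted p = 8.94e-14). The rise in tcp21 was 4.63-fold, from 10.9, 8.96 and 11.7 to 45.4, 46.9 and 53.7 CPM (log2 2.21 ± 0.11, adjusted p = 1.94e-16). In tcpq the values were 16.0, 13.5 and 13.1 against 39.1, 36.4 and 40.9 CPM (log2 1.44 ± 0.10, adjusted p = 7.37e-13). All submerged libraries lay above all mock libraries in the tcp set as well, and the 5 calls held under every alternative run.

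TCP2, a miR319 target that acts with TCP4 in leaf maturation and is known to interact with the blue-light receptor CRY1, fell in every genotype. In the bak set Col libraries had it at 24.8, 18.3 and 21.2 CPM in mock and 13.0, 8.14 and 9.24 CPM after submergence (log2 -1.07 ± 0.17, adjusted p = 3.54e-05). In bak1-3 bkk1-1 it went from 22.3, 23.5 and 26.1 to 8.45, 10.3 and 10.8 CPM (-1.29 ± 0.17, adjusted p = 4.26e-06). Col of the tcp set started lower, at 11.6, 11.1 and 11.1 CPM, and reached 5.27, 5.29 and 5.20 CPM (-1.10 ± 0.15, adjusted p = 3.93e-07). No mock library overlapped a submerged one in these 3 genotype groups. The fall was 3.79-fold in tcp21, from 23.3, 23.7 and 21.3 to 6.82, 7.08 and 4.07 CPM (log2 -1.92 ± 0.14, adjusted p = 2e-12), and 2.35-fold in tcpq, from 19.0, 16.5 and 18.1 to 8.02, 7.59 and 7.23 CPM (log2 -1.23 ± 0.14, adjusted p = 8e-09). These groups did not overlap either, and the 5 calls held under every alternative run.

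TCP4, the best studied miR319 target, which activates the jasmonate gene LOX2 and limits leaf cell division, went in opposite directions in the sets. In the bak set it rose in Col, from 26.3, 21.7 and 26.3 to 38.4, 30.3 and 32.2 CPM (log2 0.44 ± 0.12, adjusted p = 0.00398), and in bak1-3 bkk1-1, from 27.6, 24.7 and 23.7 to 37.6, 33.8 and 37.9 CPM (0.52 ± 0.12, adjusted p = 0.000961). In the tcp set it fell in Col, from 23.9, 22.3 and 21.5 to 9.89, 12.8 and 10.7 CPM (-1.03 ± 0.12, adjusted p = 2.41e-08). The Col mock levels of the sets were close, and the submerged levels were on opposite sides of them. In tcp21 it fell from 24.3, 28.9 and 30.4 to 9.35, 9.48 and 11.8 CPM (-1.45 ± 0.12, adjusted p = 1.74e-11). In tcpq it fell from 31.6, 27.9 and 32.6 to 10.4, 9.77 and 9.59 CPM (-1.63 ± 0.12, adjusted p = 7.46e-13). The submerged tcp-set libraries of all 3 genotypes ended between 9.35 and 12.8 CPM, and these 5 submergence calls of TCP4 held under every alternative run.

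TCP24, another miR319 target, was split between the sets in the same way in Col. It rose in Col of the bak set, from 22.3, 19.5 and 27.2 to 36.9, 31.1 and 28.1 CPM (log2 0.48 ± 0.13, adjusted p = 0.00431). Its values in bak1-3 bkk1-1 were 24.8 to 28.2 CPM in mock and 29.6 to 30.9 CPM after submergence, without overlap but not called (0.19 ± 0.13, adjusted p = 0.217). In the tcp set it fell in Col (15.4 to 15.7 against 10.2 to 12.1 CPM, -0.49 ± 0.12, adjusted p = 0.000825), in tcp21 (13.0 to 16.0 against 8.97 to 11.3 CPM, -0.52 ± 0.12, adjusted p = 0.000492) and in tcpq (18.2 to 18.8 against 9.43 to 9.71 CPM, -0.94 ± 0.12, adjusted p = 4.16e-08). None of these groups overlapped.

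The sets differed in tissue markers alongside TCP4 and TCP24. All 4 leaf photosynthesis markers fell in both genotypes of the bak set, with sums of 30900 to 32890 CPM in mock and 15670 to 17950 in submerged Col. In the tcp set 3 of 4 rose in Col (25840 to 30660 against 33430 to 35640 CPM), 1 of 4 in tcp21 and 4 of 4 in tcpq (19070 to 21770 against 33220 to 36730 CPM). Root markers summed to 3218 to 3315 CPM in mock and 1329 to 1644 in submerged Col of the bak set, where 1 of 9 was called lower, and to 1755 to 2055 against 1682 to 1770 CPM in Col of the tcp set, with 2 of 9 higher and 1 lower. Their median log2 fold change was -0.14 in Col of the bak set and 0 in Col of the tcp set. Young leaf and apex markers summed to 112.7 to 126.3 CPM in mock and 121.7 to 131 in submerged Col of the bak set. Of the 5 tested there, 2 were higher and 1 lower. In Col of the tcp set they summed to 99.9 to 108 against 93.1 to 94.8 CPM, with 1 higher and 2 lower. The part of these markers in the TCP4 and TCP24 results was not tested. The sets may also differ in submergence time or sowing, which the sources used here do not give, and such differences cannot be told apart from the set.

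TCP10 and TCP5 were called in some genotypes and not in others. TCP10, a miR319 target, was lower in submerged Col of the bak set (26.0 to 27.2 against 31.4 to 34.3 CPM, log2 -0.30 ± 0.11, adjusted p = 0.0304), a call lost without any one of 5 of the 6 libraries, with adjusted p up to 0.100. In tcp21 it fell without overlap from 39.1, 44.2 and 36.7 to 25.0, 23.2 and 23.0 CPM (-0.75 ± 0.09, adjusted p = 8.4e-08). In bak1-3 bkk1-1, Col of the tcp set and tcpq it was not called, at -0.07, -0.08 and 0.09. TCP5, which restrains petal growth and promotes warm-temperature elongation, fell in Col of the bak set from 14.2 to 15.2 CPM to 9.72 to 11.0 CPM (-0.50 ± 0.15, adjusted p = 0.00993) and in bak1-3 bkk1-1 from 13.7 to 16.1 to 8.70 to 12.9 CPM (-0.47 ± 0.15, adjusted p = 0.0138). The bak1-3 bkk1-1 call was lost without any one of 3 libraries (adjusted p up to 0.0806). In Col of the tcp set TCP5 went from 11.5 to 15.3 CPM to 7.64 to 11.0 CPM (-0.46 ± 0.16, adjusted p = 0.0175). Without Col mock replicate 1, the library with the conflicting label, that value was -0.30 with adjusted p = 0.150, and without Col submergence replicate 1 the call was also lost. In tcp21 (-0.34, adjusted p = 0.0752) and tcpq (0.17, adjusted p = 0.352) TCP5 was not called, although without tcp21 mock replicate 1 it was called lower in tcp21 (-0.46, adjusted p = 0.0257).

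TCP17, a TCP5-group gene, and TCP3, a miR319 target, were counted least. TCP17 had 23 to 125 counts per library and was called in no submergence comparison, with log2 values from -0.57 ± 0.26 in tcpq (adjusted p = 0.0604) to 0.46 ± 0.29 in Col of the tcp set (adjusted p = 0.193). In tcpq it was called lower with only the 6 libraries compared (-0.57, adjusted p = 0.0444), without mock replicate 3 (-0.70, adjusted p = 0.0434) and without submergence replicate 3 (-0.83, adjusted p = 0.0218). TCP3 had 4 to 33 counts per library, and reads of AT1G53233, which overlaps it on the opposite strand, may be counted with it. Its only calls were falls in tcp21, from 0.866 to 1.05 to 0.255 to 0.475 CPM (-1.26 ± 0.47, adjusted p = 0.0264), and in tcpq, from 0.911 to 1.03 to 0.245 to 0.575 CPM (-1.10 ± 0.46, adjusted p = 0.0386). The tcp21 call was lost without mock replicate 3 or submergence replicate 2 (adjusted p up to 0.107) and with only the 6 libraries (0.0557). The tcpq call was lost without any one of 5 of the 6 libraries (adjusted p up to 0.151) and with no filter (0.0575). At these depths a change of the size seen for TCP5 would not be detectable in TCP3.

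**Figure D3:**
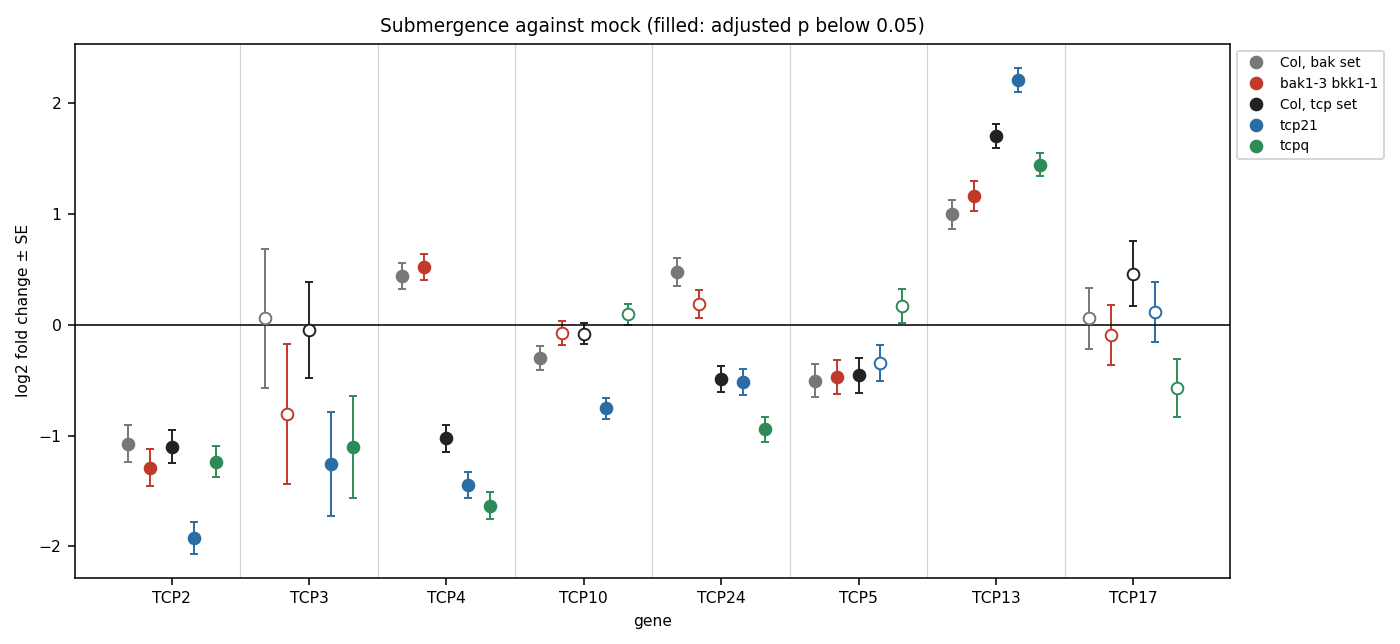
Log2 fold change of submergence against mock, with SE, for each CIN-type TCP gene in the 5 genotype groups; filled points have an adjusted p below 0.05. TCP13 lies between 1.00 and 2.21 and TCP2 between -1.92 and -1.07 in all groups, and TCP4 lies at 0.44 and 0.52 in the bak set and between -1.63 and -1.03 in the tcp set.

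The bak1-3 bkk1-1 line, with insertions in the genes of BAK1 and BKK1, co-receptors of brassinosteroid and immune receptors, was compared with Col within the bak set. No member was called in mock (adjusted p 0.765 to 0.984 over the 8 genes), where 0.721% of all tested genes were higher and 0.135% lower. No member was called under submergence (adjusted p 0.426 to 0.997), where 0.629% of genes were higher and 0.75% lower, or for the interaction of genotype with submergence (0.753 to 0.984), with 0.0387% of genes called. DESeq2 called no member in these 3 comparisons either, and the members with an unadjusted p below 0.05 in edgeR numbered 0 in mock, 0 under submergence and 0 for the interaction. In submerged libraries TCP10 lay at 27.8 to 33.3 CPM in bak1-3 bkk1-1, above all Col libraries at 26.0 to 27.2 CPM, and was not called (0.20 ± 0.11, adjusted p = 0.426). It was the one member without overlap in these groups. TCP13 overlapped narrowly, at 51.6 to 55.1 CPM in bak1-3 bkk1-1 and 39.0 to 51.9 CPM in Col. Few genes of any kind were called here, so a missed threshold does not show that the levels were equal.

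In the tcp set the mutants were compared with the same 3 Col mock libraries, so the tcp21 and tcpq results share their controls. Of the 8 members, 3 were higher and 1 lower in tcp21 mock seedlings, against 23.8% and 23% of all genes, and 3 were higher and 0 lower in tcpq, against 25.8% and 22.6%. DESeq2 called 4 members in tcpq, TCP10 being the addition.

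TCP2 was higher in both mutants than in Col of the tcp set in mock. It lay at 21.3 to 23.7 CPM in tcp21 and 16.5 to 19.0 CPM in tcpq against 11.1 to 11.6 CPM in Col, with log2 values of 1.02 ± 0.13 (adjusted p = 3.18e-07) and 0.67 ± 0.13 (adjusted p = 0.000135). TCP4 was higher by 0.44 ± 0.11 in tcpq (adjusted p = 0.00137) and by 0.30 ± 0.11 in tcp21 (adjusted p = 0.0276). The tcp21 call for TCP4 was lost without any one of 4 of the 6 libraries, with adjusted p up to 0.123. TCP10 was higher in tcp21 only, at 36.7 to 44.2 CPM against 26.3 to 33.4 CPM (0.42 ± 0.09, adjusted p = 0.000483), while tcpq lay at 25.6 to 26.7 CPM (-0.21 ± 0.09, adjusted p = 0.0696). The direct comparison of tcpq with tcp21 put TCP10 lower in tcpq at log2 -0.62 ± 0.09 (adjusted p = 1.64e-06). Col mock libraries of the bak set had TCP2 at 18.3 to 24.8, TCP4 at 21.7 to 26.3 and TCP10 at 31.4 to 34.3 CPM. For TCP2 that range lies near the mutants and above Col of the tcp set, though levels across sets were not tested.

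The TCP5 group moved differently between the mutants. TCP13 was lower in tcp21 mock seedlings, at 8.96 to 11.7 CPM against 13.4 to 15.7 CPM in Col (-0.48 ± 0.11, adjusted p = 0.000837), and was not called in tcpq (-0.04, adjusted p = 0.804). TCP17 was higher in tcpq, at 3.24, 4.95 and 3.07 CPM against 1.02, 1.59 and 1.83 CPM in Col (1.35 ± 0.28, adjusted p = 0.000191). In tcp21 TCP17 lay at 1.88 to 2.31 CPM, above every Col library but not called (0.52 ± 0.29, adjusted p = 0.143). Col mock libraries of the bak set had TCP17 at 2.56 to 3.70 and TCP13 at 20.7 to 25.0 CPM, levels that were not tested across sets. TCP5, TCP24 and TCP3 were called in neither mutant against Col in mock.

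Set against each other in mock, tcpq had 3 members higher and 2 lower than tcp21, against 25.8% and 26.6% of all genes. TCP13 (0.44 ± 0.11, adjusted p = 0.00136), TCP17 (0.83 ± 0.26, adjusted p = 0.00938) and TCP24 (0.32 ± 0.11, adjusted p = 0.018) were the higher ones, and TCP10 and TCP2 (-0.35 ± 0.13, adjusted p = 0.0224) the lower. The TCP17 call was lost without tcpq mock replicate 2 (adjusted p = 0.0964), and those of TCP24 and TCP2 without any one of 2 and 4 libraries (adjusted p up to 0.107 and 0.0942).

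Leaf and root markers also differed between these mock groups. In tcp21 3 of 4 photosynthesis markers were higher than in Col (sum 37970 to 39140 against 25840 to 30660 CPM), and in tcpq 4 of 4 were lower (19070 to 21770 CPM). Young leaf and apex markers were higher for 3 of 5 tested in tcp21 (113.5 to 122 against 99.9 to 108 CPM summed) and lower for 1 of 5 in tcpq (81.8 to 84.2 CPM), and 2 of their 7 genes, CLV3 and WUS, were at or near 0. Root markers were higher for 5 of 9 in tcp21 and for 4 of 9 in tcpq, with 1 lower. Of all tested genes, 23.8% were higher and 23% lower in tcp21, and 25.8% and 22.6% in tcpq. No marker list was tested against these shares. The part of the markers in the genotype results of the CIN-type genes was not tested.

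**Figure D4:**
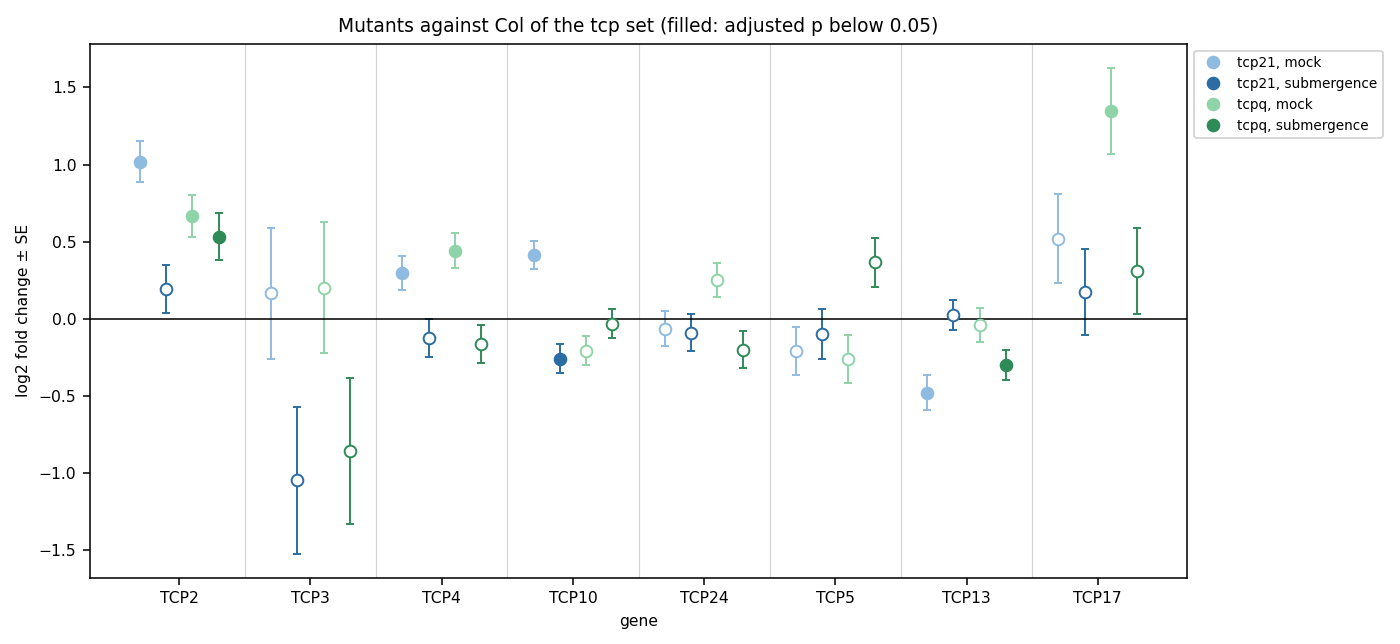
Log2 fold change of tcp21 and tcpq against Col of the tcp set, with SE, in mock (light) and under submergence (dark); filled points have an adjusted p below 0.05. In mock TCP2 lies at 1.02 in tcp21 and 0.67 in tcpq and TCP17 at 1.35 in tcpq; under submergence the called values lie between -0.30 and 0.53.

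Under submergence fewer members differed between genotypes of the tcp set than in mock, and so did fewer of all genes. Against Col, 5440 genes were called in submerged and 9538 in mock tcp21, and 3369 and 9863 in tcpq. With so few members the counts below cannot be set apart from the shares of all genes. In tcp21 against Col 1 member was lower and 0 were higher, against 14.4% and 12.3% of all genes. That member was TCP10 (-0.26 ± 0.09, adjusted p = 0.0445), whose call was kept under 1 of 11 alternatives. It was lost with DESeq2 (adjusted p = 0.0633), under 4 other settings and without any one of 5 of the 6 libraries (adjusted p up to 0.202). In tcpq against Col 1 member was higher and 1 lower, against 8.7% and 7.82% of all genes. TCP2 was the higher, at 7.23 to 8.02 against 5.20 to 5.29 CPM (0.53 ± 0.15, adjusted p = 0.0149), lost without tcpq submergence replicate 1 (adjusted p = 0.0575). TCP13 was the lower, at 36.4 to 40.9 against 45.3 to 52.0 CPM (-0.30 ± 0.10, adjusted p = 0.0369), lost on leaving out any one of the 6 libraries (adjusted p up to 0.158). Compared with tcp21, tcpq had 0 members higher and 1 lower, against 8.08% and 5.44% of all genes, again TCP13 (-0.33 ± 0.10, adjusted p = 0.0273), a call lost without any one of 3 libraries.

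The difference in response between mutant and Col was tested as an interaction, for which 31% of all genes were called with tcp21 and 34.6% with tcpq. With tcp21, 3 of 8 members were called, TCP10 (-0.67 ± 0.13, adjusted p = 0.000246), TCP2 (-0.82 ± 0.20, adjusted p = 0.00253) and TCP13 (0.50 ± 0.15, adjusted p = 0.010). Each of these genes differed from Col in tcp21 mock seedlings in the direction opposite to its interaction, and their submerged levels differed less. An interaction and a mock comparison share the mock libraries. The calls held under every alternative run, and TCP4 (-0.42 ± 0.17, adjusted p = 0.053) was called without any one of 4 single libraries, among them Col mock replicate 1 (-0.46, adjusted p = 0.0486). With tcpq, 4 of 8 were called, TCP4 (-0.60 ± 0.17, adjusted p = 0.00503), TCP5 (0.63 ± 0.22, adjusted p = 0.0286), TCP24 (-0.45 ± 0.16, adjusted p = 0.0323) and TCP17 (-1.03 ± 0.39, adjusted p = 0.0416). Without Col mock replicate 1, whose label conflicts, TCP4 alone was still called, and TCP24 lay at -0.45 (adjusted p = 0.0535), TCP5 at 0.47 (0.114) and TCP17 at -0.81 (0.130). These 3 calls were also lost without any one of several other libraries.

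Tissue markers differed in the same interactions. With tcp21, 3 of 5 young leaf and apex markers, 4 of 9 root markers and 1 of 4 photosynthesis markers were called lower, and none higher. Of all 20385 tested genes, 3326 were called lower and 3000 higher. Submergence in tcp21 lowered 4 of the 5 young leaf and apex markers, against 24.7% of all genes. Their list summed to 113.5 to 122 CPM in mock and 87.6 to 92.0 after submergence. With tcpq, 4 of 4 photosynthesis markers, 1 of 5 young leaf and apex markers and 1 of 9 root markers were called higher, and none lower. Of all 20385 tested genes, 3567 were called higher and 3496 lower, and no marker list was tested against such shares. The part of these markers in the interactions of the members was not tested.

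The miR319 loci were examined because mature miR319 cuts 5 of the 8 transcripts. Poly-A libraries count the primary transcripts of microRNA genes poorly and do not measure mature microRNA. MIR319B (AT5G41663) had 9, 1 and 8 counts in Col mock and 34, 55 and 17 in submerged libraries of the bak set (log2 2.56 ± 0.71, adjusted p = 0.00572), without overlap. In bak1-3 bkk1-1 it had 3, 3 and 0 against 41, 25 and 45 counts (4.03 ± 0.82, adjusted p = 0.000442), and in tcp21 0, 11 and 2 against 33, 15 and 15 (2.47 ± 0.68, adjusted p = 0.0035). Fitted fold changes from such low counts depend on the prior count, and without tcp21 mock replicate 2 the tcp21 value was 4.52. In Col of the tcp set MIR319B had 14, 12 and 2 against 33, 14 and 31 counts and was not called (log2 1.34). In tcpq it had 24, 21 and 22 counts in mock and 25, 14 and 28 after submergence (log2 0.33, not called). Between the mutants in mock, MIR319B was called higher in tcpq than in tcp21 (log2 2.34, from 1.58 to 4.38 over the alternatives). Against Col in mock it was called in neither mutant (log2 0.99 in tcpq and -1.35 in tcp21). MIR319A (AT4G23713) never exceeded 6 counts and MIR319C (AT2G40805) 10 counts in a library, and neither was tested.

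Of 5 genes of microRNA maturation and action, 0 rose and 3 fell in submerged Col of the bak set, 1 rose and 3 fell in bak1-3 bkk1-1, and 0 rose in the tcp set, where 3 fell in Col, 1 in tcp21 and 4 in tcpq. Of all tested genes, 25.4% rose and 24.1% fell in Col of the bak set, 26.3% and 26.4% in bak1-3 bkk1-1, 27.1% and 22.9% in Col of the tcp set, 24.1% and 24.7% in tcp21, and 32.8% and 30.6% in tcpq, and lists this short cannot be set apart from such shares. HEN1, which methylates small RNA ends, fell by 1.07 ± 0.19 in Col of the bak set (adjusted p = 0.000114) and by 0.98 ± 0.15 in tcpq (adjusted p = 1.53e-06). HYL1, the partner of Dicer, fell by 1.06 ± 0.17 in tcpq (adjusted p = 4.77e-06). AGO1, the slicer that miR319 guides, fell by 0.46 ± 0.09 in Col of the bak set (adjusted p = 0.000497). The medians over the 5 genes lay between -0.52 and -0.04, beside medians of all tested genes between -0.02 and 0.04.

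Among 10 tested genes reported as activated by CIN-type TCP factors, calls went both ways in each genotype, and no direction was common to the list. Submergence raised 3 and lowered 3 in each genotype of the bak set, raised 5 and lowered 3 in Col and tcp21 of the tcp set, and raised 6 and lowered 2 in tcpq, against 24.1% to 32.8% of all genes higher and 22.9% to 30.6% lower over the 5 comparisons. PIF4, a growth-promoting bHLH factor, fell by 1.78 ± 0.19 in Col of the bak set (adjusted p = 1.98e-06) and by 0.98 ± 0.09 in Col of the tcp set (adjusted p = 1.7e-10). YUC8, an auxin synthesis gene, went up by 1.84 ± 0.28 in bak-set Col (adjusted p = 2.36e-05). LOX2, the jasmonate synthesis gene activated by TCP4, fell in bak1-3 bkk1-1 from 147 ± 35.2 to 41.0 ± 8.11 CPM (log2 -1.84 ± 0.27, adjusted p = 0.00025) and rose in Col of the tcp set from 1.47 ± 0.441 to 25.8 ± 2.66 CPM (4.13 ± 0.30, adjusted p = 3.97e-09), where TCP4 fell. LOX2 in Col mock libraries was at 142 to 214 CPM in the bak set and 0.992 to 1.86 CPM in the tcp set.

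In mock, tcp21 had 3 of these genes higher and 5 lower than Col, and tcpq 4 higher and 5 lower. Of all genes, 23.8% were higher and 23% lower in tcp21, and 25.8% and 22.6% in tcpq. PIF4 was lower in both, at log2 -1.34 ± 0.09 in tcp21 (adjusted p = 5.22e-13) and at log2 -1.14 ± 0.09 in tcpq (adjusted p = 6.65e-12). AS1, a leaf-fate MYB factor, was higher in tcp21 by 0.90 ± 0.10 (adjusted p = 1.24e-08), and HAT2, an auxin-responsive homeobox gene, was lower there at log2 -1.10 ± 0.10 (adjusted p = 3.01e-10). IAA3, an auxin repressor, was lower in tcpq at log2 -2.71 ± 0.17 (adjusted p = 2.25e-13). KRP1, a cell-cycle inhibitor, was lower in tcpq at log2 -1.64 ± 0.18 (adjusted p = 5.37e-09).

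Boundary and KNOX genes, which CIN-type TCP factors hold down, had 7 tested members. In the bak set 0 rose and 1 fell in each genotype, and in the tcp set 1 rose and 2 fell in Col, 0 and 3 in tcp21, and 0 and 2 in tcpq, against 24.1% to 32.8% of all genes higher and 22.9% to 30.6% lower over the 5 comparisons. KNAT1, a meristem homeobox gene, fell in all 3 genotypes of the tcp set, by 1.16 ± 0.13 in Col (adjusted p = 2.9e-08), 1.40 ± 0.13 in tcp21 (adjusted p = 4.22e-10) and 1.14 ± 0.12 in tcpq (adjusted p = 4.05e-09). It was higher in tcpq than in Col in mock by 0.81 ± 0.12 (adjusted p = 2.33e-06) and under submergence by 0.83 ± 0.14 (adjusted p = 6.37e-05).

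TIE and TOPLESS-type corepressors, which turn CIN-type TCP factors into repressors, had 8 tested members. Submergence raised 1 and lowered 2 in Col of the bak set, 4 and 1 in bak1-3 bkk1-1, 0 and 3 in Col of the tcp set, 1 and 2 in tcp21, and 5 and 1 in tcpq, against 24.1% to 32.8% of all genes higher and 22.9% to 30.6% lower over the 5 comparisons. TPL was raised by 0.30 ± 0.09 in bak-set Col (adjusted p = 0.00789) and fell by 0.31 ± 0.08 in Col of the tcp set (adjusted p = 0.00278). TPR4 fell by 1.02 ± 0.11 in Col of the bak set (adjusted p = 3.56e-07). In tcpq mock seedlings 4 of the 8 tested corepressors were lower than in Col and 1 was higher, against 22.6% and 25.8% of all genes. Among the lower were 3 TIE genes, TIE4 at log2 -2.45 ± 0.41 (adjusted p = 1.3e-05), TIE2 at log2 -1.28 ± 0.25 (adjusted p = 7.27e-05) and TIE1 at log2 -1.86 ± 0.39 (adjusted p = 0.00021), all from under 4 CPM.

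GRF and GIF growth genes, part of which miR396 restrains downstream of TCP4, had 10 tested members for the bak set, 9 for the tcp set. Submergence raised 2 and lowered 1 in Col of the bak set, 0 and 3 in bak1-3 bkk1-1, 1 and 3 in Col of the tcp set, 1 and 4 in tcp21, and 2 and 0 in tcpq, against 24.1% to 32.8% of all genes higher and 22.9% to 30.6% lower over the 5 comparisons. GRF4 fell by 1.26 ± 0.24 in Col of the bak set (adjusted p = 0.000274) and by 1.88 ± 0.25 in bak1-3 bkk1-1 (adjusted p = 4.32e-06). GRF3, a miR396 target, was raised by 0.48 ± 0.14 in bak-set Col (adjusted p = 0.00884) and fell by 0.60 ± 0.15 in Col of the tcp set (adjusted p = 0.00123).

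The other class II genes, the CYC/TB1 type that restrains branching, were nearly silent. TCP1 had 0 counts in all 30 libraries, which allows up to 0.153 CPM in the smallest bak-set library and 0.172 CPM in the smallest tcp-set library at 3 counts. TCP12 had at most 26 and TCP18 at most 15 counts in a library, and none of the 3 passed the filter.

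Genes of most similar pattern were sought for TCP10 and TCP13, the most counted member of each group, by Pearson correlation of log2 CPM over the libraries of a set. These libraries share the contrast of mock and submergence, so many genes correlate with TCP13. In the bak set (12 libraries) NAC082 (AT5G09330, 0.989), AGL18 (AT3G57390, 0.988) and AT5G66050 (0.988) were nearest to TCP13, and in the tcp set (18 libraries) RSH2 (AT3G14050, 0.989), AT1G21790 (0.981) and PGIP2 (AT5G06870, 0.980). The nearest to TCP10 were BIR6 (AT3G48250, 0.901), AT1G08910 (0.869) and AT1G76360 (0.868) in the bak set, and AT1G70550 (0.937), MAKR2 (AT1G64080, 0.921) and AT4G26220 (0.916) in the tcp set. No gene was named in both sets, and no CIN-type member was among them.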

How the data were processed

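Gene counts were deposited by the authors as 2 tables of raw counts, 1 per set. Per the submitters' processing notes, fastp 0.23.1, STAR 2.7.9a and TAIR10 were used. The sources used here name no counting tool, strand setting or annotation, so genes that overlap on opposite strands, TCP3 among the members, are uncertain. Of the 32833 IDs, 32548 matched RefSeq TAIR10.1, whose transcripts gave exon lengths and sequences. No coordinates are given because the releases differ.

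The sets were fitted separately with edgeR 4.0.16 (R 4.3.3) with filterByExpr (20666 and 20385 genes kept), TMM scaling and robust quasi-likelihood tests over all groups, with Benjamini-Hochberg adjustment over all genes tested. CPM used TMM-scaled library sizes, and log2 CPM a prior count of 2. SE is the log2 fold change over the square root of F. The method was run on counts simulated from the fitted model with few genes changed. Such counts meet the assumptions of the model, so that run cannot check them. DESeq2 1.42.0, its size factors in edgeR, no filter, the replicate block, only the 6 libraries compared, and leaving out each library were alternatives. Counts per library set the precision, and counting error is smallest for the members with most counts.

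The members and the 14 gene lists were chosen with earlier results of these data known. The 8 members, the targeted genes, the miR319 loci and the CYC/TB1-type genes were named whatever their values, and from each other list at most the 3 called genes of smallest adjusted p per comparison. Nothing states that replicates were separate cultures, and the p-values then reflect only how these samples vary, which may be technical. Libraries with the same replicate number in their titles did not deviate together (residual correlation -0.093 to 0.071 over 18 pairs in the bak set and -0.076 to 0.068 over 45 in the tcp set), so these numbers were not treated as pairs. The replicate block used the same numbers. In some groups the depositors' own library names carry other numbers, so neither can show whether cultures were paired.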

Additional observations from a re-analysis of the deposited data

Results flagged for a closer look

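The response to submergence differed between tcp21 and Col, by the interaction test in edgeR, for TCP2 (-0.82 on the log2 scale), TCP10 (-0.67) and TCP13 (0.50). It differed between tcpq and Col for TCP4 (-0.60), TCP24 (-0.45), TCP5 (0.63) and TCP17 (-1.03). Of the tcpq values, those of TCP24, TCP5 and TCP17 were not called without Col mock replicate 1, whose genotype field conflicts with its title. Both families of values use the same Col libraries.

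TCP4 moved in opposite directions in the Col seedlings of the sets, by 0.44 in the bak set and by -1.03 in the tcp set, with no mock library overlapping a submerged one in either. TCP24 did the same, at 0.48 and -0.49. The difference between the sets was not tested, since the sets were fitted apart.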

How the results depend on the processing

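Of 49 called member results, 33 kept their call under every alternative and 16 lost it under at least 1, and none changed direction. Counts of members called under submergence against mock on leaving out 1 library were 5 to 6 (6 with all libraries) in Col of the bak set, 3 to 4 (4) in bak1-3 bkk1-1, 4 to 5 (5) in Col of the tcp set, 5 to 7 (6) in tcp21 and 4 to 5 (5) in tcpq. The same gave 3 to 5 (5) for tcpq against tcp21 in mock, 0 to 1 (1) for tcp21 against Col under submergence, 0 to 1 (2) for tcpq against Col under submergence, 0 to 1 (1) for tcpq against tcp21 under submergence and 1 to 4 (4) for the tcpq interaction. The single tcp21 call under submergence, TCP10, became 0 with DESeq2 size factors, DESeq2, no filter and only 6 libraries, and tcpq against tcp21 under submergence became 2 with no filter and with only 6 libraries, where TCP5 was added. Submergence in tcpq gave 4 with no filter and 6 with only 6 libraries in place of 5, submergence in tcp21 5 with only 6 libraries in place of 6, the tcpq interaction 3 with no filter in place of 4, and tcpq against Col in mock 4 in place of 3 with DESeq2, its size factors or only 6 libraries. The causes were not tested.

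With the replicate block the tcp21 call under submergence was likewise 0, and every other count of members called was the one reported. TCP5 in bak1-3 bkk1-1 against Col under submergence, not called at 0.0021, was -0.0056 with the block and -0.0083 with only the 6 libraries. TCP24 in the tcp21 interaction, not called at -0.025, was 0.0075 with DESeq2 size factors and 0.0081 with DESeq2.

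Among results not called, 32 crossed 0 when 1 library was left out, over these log2 ranges: TCP10 (bak1-3 bkk1-1 vs Col in mock -0.14 to 0.044, submergence in Col of the tcp set -0.17 to 0.0031, submergence in bak1-3 bkk1-1 -0.14 to 0.040, tcpq vs Col under submergence -0.074 to 0.026), TCP13 (bak1-3 bkk1-1 vs Col in mock -0.039 to 0.21, tcp21 vs Col under submergence -0.036 to 0.093, tcpq vs Col in mock -0.13 to 0.019), TCP17 (bak1-3 bkk1-1 interaction -0.36 to 0.050, submergence in Col of the bak set -0.14 to 0.28, submergence in bak1-3 bkk1-1 -0.24 to 0.070, submergence in tcp21 -0.043 to 0.20, tcpq vs tcp21 under submergence -0.11 to 0.30), TCP2 (bak1-3 bkk1-1 vs Col under submergence -0.19 to 0.18, bak1-3 bkk1-1 interaction -0.35 to 0.013), TCP24 (bak1-3 bkk1-1 vs Col under submergence -0.18 to 0.023, tcp21 interaction -0.091 to 0.069, tcp21 vs Col in mock -0.13 to 0.013, tcp21 vs Col under submergence -0.15 to 0.0034), TCP3 (submergence in Col of the bak set -0.30 to 0.46, submergence in Col of the tcp set -0.31 to 0.23, tcp21 vs Col in mock -0.052 to 0.44, tcpq vs Col in mock -0.017 to 0.48, tcpq vs tcp21 in mock -0.033 to 0.11, tcpq vs tcp21 under submergence -0.033 to 0.45), TCP4 (bak1-3 bkk1-1 vs Col in mock -0.053 to 0.082, tcpq vs tcp21 under submergence -0.12 to 0.053), TCP5 (bak1-3 bkk1-1 vs Col in mock -0.11 to 0.015, bak1-3 bkk1-1 vs Col under submergence -0.18 to 0.12, bak1-3 bkk1-1 interaction -0.15 to 0.15, tcp21 interaction -0.039 to 0.24, tcp21 vs Col under submergence -0.23 to 0.036, tcpq vs tcp21 in mock -0.20 to 0.057). None of these values was called.

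Counts over all genes that moved by over 1.5 times were those of bak1-3 bkk1-1 against Col in mock (177, 335 with DESeq2, 278 with only 6 libraries, 117 at the lowest without 1 library), under submergence (285, 690 with DESeq2, 160 at the lowest) and the interaction (8, 99 with DESeq2, 1 with the block, 2 to 21 without 1 library), of tcp21 against Col under submergence (5440, 3272 at the lowest), and of tcpq against tcp21 under submergence (2756, 1659 at the lowest). Of the results for called list genes, 32 lost their call without some single library, and 1 to 5 did under each other setting. Coding length in place of exon length raised levels per length by 1.55 to 1.89 times, not alike for all members, and some orders changed. By coding length the mean share of TCP4 passed that of TCP2 in Col mock of the bak set (14.73% against 14.67%). In tcpq mock it passed that of TCP10 (21.57% against 21.28%). In Col mock of the bak set TCP5 (9.74% to 11.02%) no longer overlapped TCP4 (14.38% to 15.25%). In submerged Col of that set TCP13 overlapped TCP24. Depth limits TCP3, TCP17 and MIR319B, and the tcp set had more libraries behind its spread than the bak set.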
